A study of Mus musculus with 474 samples.

Results

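The libraries described here are the extremes of 1 haemoglobin RNA in mouse skeletal muscle. They are 100 RNA-seq libraries, 50 with the highest and 50 with the lowest level of Hba-a1, an adult alpha-globin gene, and each was chosen by its rank among libraries of the same sex and generation. All libraries of the series, 1 per animal, came from the gastrocnemius muscle of Diversity Outbred mice, a genetically mixed stock in which no animal repeats the genome of another. All animals of both sides had the high-fat, high-sugar diet (45percent fat in the labels) from 4 weeks of age and were harvested at 22 weeks. Titles give female or male and a number, 17, 18, 19, 21 or 23, read here as the generation of the stock, an assumption on which the groups and the test by generation rest. Each of the 10 sex-by-generation groups (F_17 to M_23) held 45 to 50 libraries and gave its 5 highest as Hba-a1-high and its 5 lowest as Hba-a1-low libraries. The others are called the remaining libraries. The samples are whole muscle, so fewer cells of a type and less RNA per cell cannot be told apart.

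Haemoglobin, the oxygen carrier of red cells, is built of paired alpha and beta chains around haem. Reticulocytes, the youngest red cells in the circulation, have lost their nucleus but still hold globin RNA, so a piece of muscle brings with it some globin RNA from the blood in its vessels. In the adult mouse the alpha chain comes from neighbouring gene copies, Hba-a1 and Hba-a2, and the beta chain from Hbb-bs and Hbb-bt. Alas2 makes the first enzyme of haem synthesis in the erythroid line, and Slc4a1 makes the anion exchanger of the red cell membrane.

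Hba-a1 lies on chromosome 11 from 32283511 to 32284465 and Hba-a2 from 32296489 to 32297298, both on the plus strand (GRCm38). Their sequences are shown because the choice of libraries rests on telling these copies apart. In GENCODE M21 the coding sequences of both have the same length, are 99.77% identical and differ at 1 base, C381T, counted from the A of the start codon with the Hba-a1 base first. That difference leaves codon 127 with the same amino acid, so the encoded chains of 142 residues do not differ in this reference. The bases around it read as follows, with the differing base in capitals.
Hba-a1: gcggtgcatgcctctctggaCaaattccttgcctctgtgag
Hba-a2: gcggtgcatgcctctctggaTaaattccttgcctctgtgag
The 35 bases before the start codon that the transcripts share and the 74 bases after the stop codon were identical. The Hba-a1 transcript has a longer 5′ end, and 56.5% of the 600 stretches of 100 bases in it also occurred unchanged in Hba-a2.

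The promoters are as alike. In RefSeq on GRCm38.p6, the 250 bases before each transcription start align without a mismatch, offset by a few bases at the annotated start. For Hba-a1 this start lies after the gene start given above, so the stretch shown partly overlaps the gene span. Both hold TGATAA, a word of the kind bound by the erythroid factor GATA1, shown in capitals.
Hba-a1 promoter, chr11:32283422-32283671, plus strand: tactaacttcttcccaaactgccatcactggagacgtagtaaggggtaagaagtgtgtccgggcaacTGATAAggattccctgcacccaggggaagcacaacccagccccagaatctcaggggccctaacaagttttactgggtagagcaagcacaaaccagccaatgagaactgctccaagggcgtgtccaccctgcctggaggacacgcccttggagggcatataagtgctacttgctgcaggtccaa
Hba-a2 promoter, chr11:32296242-32296491, plus strand: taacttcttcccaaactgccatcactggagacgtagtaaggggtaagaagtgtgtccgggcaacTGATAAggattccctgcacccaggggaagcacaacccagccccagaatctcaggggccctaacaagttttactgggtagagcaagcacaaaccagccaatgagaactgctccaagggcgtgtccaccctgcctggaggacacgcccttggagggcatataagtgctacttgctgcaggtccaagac
Hbb-bs and Alas2, which rose with Hba-a1, are shown for the same word search, which took the word AGATAA, the word TGATAA and the same words with a final G, on both strands.
Hbb-bs promoter, chr7:103827929-103828178, minus strand: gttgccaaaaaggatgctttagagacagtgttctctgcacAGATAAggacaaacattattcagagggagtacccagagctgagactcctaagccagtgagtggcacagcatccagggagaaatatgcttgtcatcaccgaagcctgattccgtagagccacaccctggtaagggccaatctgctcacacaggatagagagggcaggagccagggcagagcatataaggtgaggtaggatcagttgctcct
Alas2 promoter, chrX:150547167-150547416, plus strand: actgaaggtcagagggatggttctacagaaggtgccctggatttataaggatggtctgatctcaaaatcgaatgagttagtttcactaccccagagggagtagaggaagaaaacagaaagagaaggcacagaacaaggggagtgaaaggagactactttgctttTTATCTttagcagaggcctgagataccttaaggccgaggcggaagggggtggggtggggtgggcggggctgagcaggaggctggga
The Hbb-bt promoter held none of these words, and that of Slc4a1 was not analysed here. Of all 32851 promoters of this length in the table, 26.5% held at least 1, so a match is a description of the letters only.

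The name blood-rich and blood-poor fits these sides only in part, because Hba-a1 does not vary smoothly. As a share of the counts on both alpha-globin genes, Hba-a1 took 23.6% to 68.9% in 157 libraries and at most 2.67% in the other 317, with no library between. A boundary of 10%, set after these values were seen, separates these ranges, and each of the 10 groups had 11 to 19 libraries above it. All 50 Hba-a1-high libraries lay above it (27.3% to 68.1%, median 53.0%) and all 50 Hba-a1-low libraries below it (at most 0.0404%). Of the remaining libraries, 107 lay above and the rest below. Hba-a1 itself ranged from 23.2 to 148.1 CPM (counts scaled to a common library total after TMM normalisation) in the high libraries, with a median of 49.9, and from 0 to 0.0138 CPM in the low ones, 48 of which had a count of 0. These values chose the libraries and are given as a description.

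**Figure D1:**
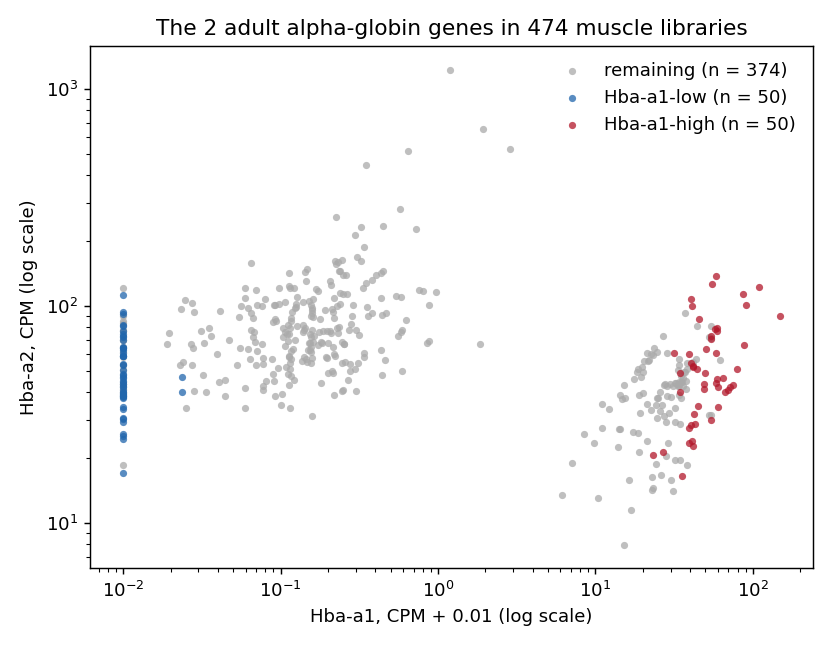
Hba-a1 (horizontal axis, CPM + 0.01, log scale) against Hba-a2 (vertical axis, CPM, log scale), 1 point per library, coloured by side. The points form separate clouds along the Hba-a1 axis, with all 50 high libraries in the right one and all 50 low libraries in the left one, and the libraries richest in Hba-a2 are remaining libraries of the left cloud.

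Hba-a2, the other copy, did not separate the sides. It had 16.5, 49.3 and 137.3 CPM (lowest, median and highest) in the high libraries and 16.96, 46.7 and 113.1 CPM in the low ones. Its mean was higher on the high side in 6 of the 10 groups and lower in 4, by -0.48 to 0.53 on the log2(CPM + 0.5) scale. It was not tested, since it shares reads with the gene that chose the libraries. The libraries with the most erythroid RNA were on neither side. Hba-a2 reached 1229 CPM and Hbb-bs 1259 CPM among the remaining libraries, and 29 of these had more Hba-a2, 9 more Hbb-bs and 13 more Alas2 than any high library.

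The rule left ties at its lower edge. In each group 4 to 8 libraries shared the lowest deposited score, and 20 such libraries in all stayed out of the low side because the lower animal number was taken. At the upper edge the lowest high library was at a score of 10.997 to 12.402 across the groups, and the highest library left out was at 10.973 to 12.320. At the lower edge the highest low library was at 6.27 to 6.44 and the lowest library left out at 6.27 to 6.52. The score is the variance stabilising transform (VST), whose unit is close to log2 at high counts but not at low ones. For Alas2 the high minus low difference was 1.07 on the log2 scale of counts and 0.59 on the score. Slopes per unit of score are therefore not compared in size between libraries rich and poor in Hba-a1.

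Facts of the series that bear on the comparison are few. Total counts, in M (mega) counts, were 49.0 M or more in each of the 100 libraries, and were 82.8 ± 15.8 M (SD, n = 50) on the high and 81.6 ± 15.8 M (SD, n = 50) on the low side. The difference of 1.19 M lay within the spread (permutation test within groups, 2-sided, p = 0.717). The 5 libraries of the series whose sex-linked RNA went against their label were all among the remaining ones. Library numbers fall into 5 blocks of consecutive numbers, and these held 13, 12, 7, 5 and 13 high and 9, 9, 13, 14 and 5 low libraries. What the blocks stand for is not given in the sources used here.

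The comparison asked which other RNAs differ between muscle with high and with low Hba-a1. Of 18458 genes tested, 5 passed an adjusted p of 0.05 (0.0271%), 4 of them higher in the high libraries (0.0217%) and 1 lower (0.00542%), by edgeR's quasi-likelihood F-test with group as covariate and Benjamini-Hochberg adjustment. The 4 that rose were Hbb-bs, Hbb-bt, Alas2 and Slc4a1, all genes of the red cell line, and the 1 that fell was Gpr75. At an unadjusted p under 0.05 there were 805 genes, and the median log2 difference over all genes was -0.0011. All 5 called differences were larger than 1.5-fold.

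Hbb-bs, a beta-globin gene on chromosome 7 (103826534 to 103828096), had 30.8, 72.1 and 161.8 CPM (lowest, median and highest) in the high libraries and 9.88, 40.9 and 86.1 CPM in the low ones. The sides overlapped, with 18 of 50 high libraries above the highest low one. It rose 1.94-fold (log2 0.96, SE 0.10, edgeR adjusted p = 6.53e-12), and its mean was higher on the high side in 10 of 10 groups, by 0.58 to 1.43. Hbb-bt, its neighbour (103812524 to 103813996), had 1.69, 10.8 and 33.02 CPM in the high and 0.961, 5.51 and 18.1 CPM in the low libraries. It rose 2.09-fold (log2 1.06, SE 0.15, edgeR adjusted p = 1.45e-06), also in 10 of 10 groups.

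Alas2, on chromosome X (150547375 to 150570638), had 0.831, 2.40 and 5.76 CPM in the high and 0.350, 1.21 and 3.66 CPM in the low libraries. It rose 2.10-fold (log2 1.07, SE 0.12, edgeR adjusted p = 2.51e-10), again in 10 of 10 groups, and 11 high libraries lay above the highest low one. Slc4a1, on chromosome 11 but 70.1 Mb from Hba-a1 (102348824 to 102366203), was close to the detection limit, with a median of 0.0975 CPM in the high and 0.0228 CPM in the low libraries. It was at a count of 0 in 6 high and 21 low libraries, and reached 4.62 CPM in 1 high library. Its log2 difference was 1.78 (SE 0.36, edgeR adjusted p = 0.0176), with a higher mean in 9 of 10 groups. The call for Slc4a1 was lost when any 1 of F_17, F_23, M_17, M_18, M_19 or M_23 was left out, with adjusted p up to 0.193. It was also lost with ties given to the higher animal number (1.58, adjusted p = 0.0869), with 3 or 10 libraries per side and group, in females alone and with limma.

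**Figure D2:**
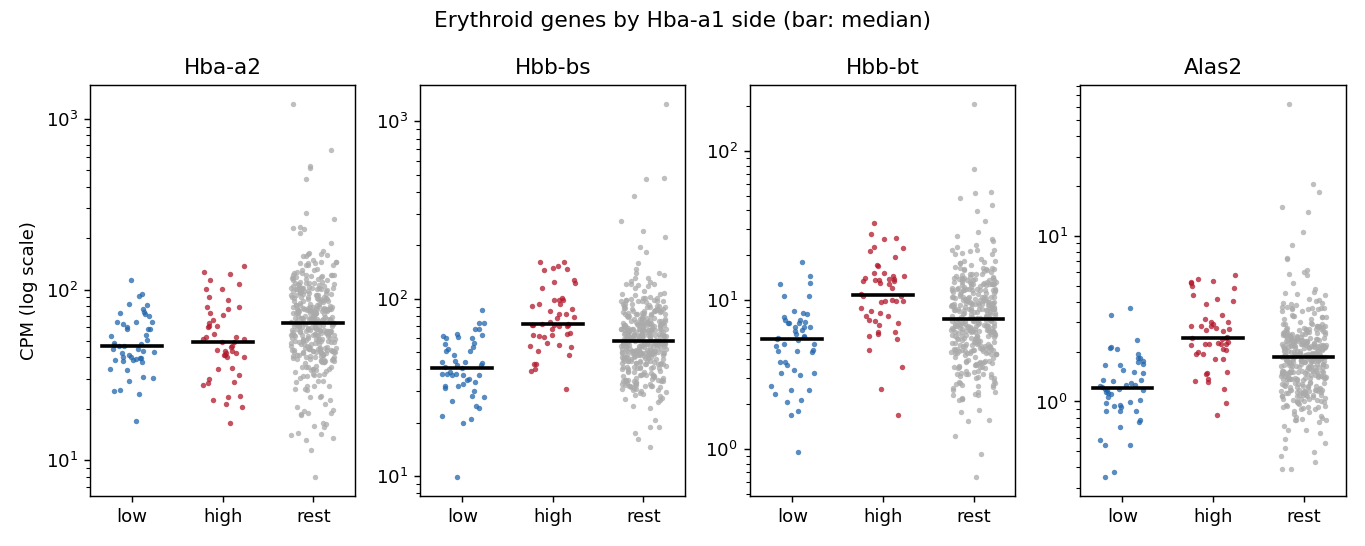
Values of Hba-a2, Hbb-bs, Hbb-bt and Alas2 (CPM, log scale) in the 50 low, 50 high and all remaining libraries, 1 point per library, with a bar at the median. The medians of Hbb-bs, Hbb-bt and Alas2 are higher in the high than in the low libraries with overlapping points, those of Hba-a2 are 49.3 and 46.7 CPM, and the highest points of every gene are remaining libraries.

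**Figure D3:**
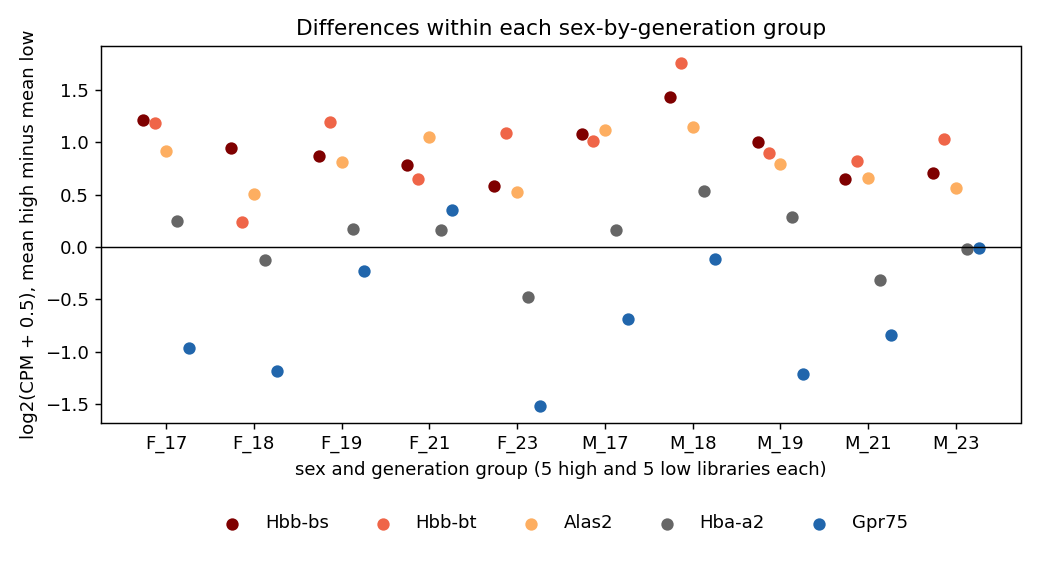
Mean of the 5 high minus mean of the 5 low libraries (vertical axis, log2(CPM + 0.5)) in each of the 10 sex-by-generation groups, F for female and M for male with the generation number. Hbb-bs, Hbb-bt and Alas2 lie above 0 in all 10 groups, Hba-a2 lies on both sides of 0, and Gpr75 lies below 0 in 9 of 10.

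Gpr75, which encodes an orphan G protein-coupled receptor, lies on chromosome 11 from 30885358 to 30893729, 1.40 Mb before Hba-a1. It is named because it was called and was chosen after its values were seen. It had 0.0612, 0.317 and 2.83 CPM in the high and 0.129, 0.517 and 5.29 CPM in the low libraries, so the sides overlapped widely. It fell by 1.40 on the log2 scale (SE 0.30, edgeR adjusted p = 0.0282) and was lower in 9 of 10 groups. Without any 1 of F_17, F_18, F_23, M_17, M_19 or M_21 the call was lost, with adjusted p up to 0.43, and also with the library block in the fit (-1.32, adjusted p = 0.161), with all tied libraries on the low side (-1.22, adjusted p = 0.05004), with 3 libraries per side and group, in either sex alone and with limma. Gpr75 overlaps Asb3 on the same strand, so that reads of either may be counted for the other.

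The erythroid lists show how narrow the difference was. Over the 5 lists of globin, haem, red cell membrane, reticulocyte and erythroid factor genes, 4 of 53 tested genes were called, against 0.0271% of all genes. Of the globin list only Hbb-bs and Hbb-bt were tested, and both rose. Of 13 genes of haem synthesis and erythroid iron transport Alas2 alone was called, and the list's median log2 difference was 0.01. Fech, which inserts the iron, had a log2 difference of -0.02 (SE 0.02, adjusted p = 1.00). Tfrc, the transferrin receptor that takes up iron, had -0.07 (SE 0.10).

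Of 14 tested red cell membrane genes Slc4a1 was called, and the list's median was 0.06. Sptb and Ank1, of the membrane skeleton, had 0.06 (SE 0.04) and -0.06 (SE 0.04), neither called. None of 17 tested reticulocyte genes passed (median 0.01). None of 7 tested erythroid transcription factor genes passed either (median 0.01), and Gata1 and Klf1 were too low to test, with medians of 0.0163 and 0.0426 CPM in the high and 0.0209 and 0.0276 CPM in the low libraries.

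Markers of other cells of blood and muscle were not called. In the other 23 lists 0 of the tested genes passed, and list medians ran from -0.41 to 0.17. For neutrophils, 10 of 20 listed genes were tested, and their summed level ran from 1.21 to 22.6 CPM (median 2.92) in the high and from 1.62 to 5.49 CPM (median 3.32) in the low libraries. The list's median log2 difference was 0.12, with 6 of the 10 tested genes above 0 and Mmp9, Cxcr2, Lcn2 and Retnlg below it. The largest difference was that of S100a8, the neutrophil calcium-binding protein, with medians of 0.0742 and 0.0286 CPM. Its log2 difference was 1.37 (SE 0.37, edgeR adjusted p = 0.518), with a higher mean in 10 of 10 groups. With the library block added to the fit it was 1.73 and passed (adjusted p = 0.0129). Summed B cell genes had medians of 60.3 and 57.7 CPM, nearly all of it Ighm (59.1 and 56.4 CPM, log2 difference 0.00, SE 0.32), and T and NK cell genes 2.12 and 2.20 CPM. Their list medians were -0.25 and -0.41.

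The other tissue components were close between the sides. Summed endothelial genes, which line the vessels, had a median of 572.5 CPM in the high and 568.3 CPM in the low libraries, with 0 of 16 called and a list median of 0.02. Summed macrophage genes had 119.8 and 122.8 CPM, adipocyte genes 1464 and 1594 CPM (mostly Car3, at 1195 and 1332 CPM) and slow fibre genes 3276 and 3037 CPM, again with none called. Mb, the myoglobin of muscle fibres, led a list of other haem-globin genes with a median of 0.05 and none of 3 called. Of the genes for haem breakdown and iron handling 0 of 15 passed, and of the hypoxia-responsive genes 0 of 16, with medians of 0.02 each.

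The difference did not pass a test for a change with sex or, in the erythroid genes, with generation. For side by sex 0 of 18458 genes passed (0.0%) in edgeR and 0 in limma on the deposited score, with 1935 and 2006 at an unadjusted p under 0.05. The male minus female gap of the high minus low difference was 0.08 (SE 0.19) for Hbb-bs, 0.07 (SE 0.30) for Hbb-bt and 0.05 (SE 0.24) for Alas2. For side by generation 2 of 18458 passed (0.0108%), and neither is an erythroid gene. Within the blocks of library numbers no gene passed at the smaller size, but the difference of Hbb-bs ran from 0.73 to 1.19, that of Hbb-bt from 0.72 to 1.63 and that of Alas2 from 0.75 to 1.54, all above 0 in all 5 blocks. That of Gpr75 ran from -1.73 to -0.25.

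The slope on Hba-a1 was also fitted in the remaining libraries. They were trimmed on the same score, since the 5 highest and 5 lowest libraries of each group had been taken out. At the lower edge 20 tied libraries stayed in. Whether this selection bears on the erythroid slopes was not tested. The slope on the Hba-a1 score, in log2 per unit of score, passed for 9 of 18820 genes (0.0478%), 4 upward and 5 downward, and the erythroid genes were not among them. Hbb-bs had a slope of -0.05 (SE 0.02, edgeR adjusted p = 1.00), Hbb-bt -0.07 (SE 0.03), Alas2 -0.05 (SE 0.03) and Slc4a1 -0.12 (SE 0.06). Over all libraries of the series the slopes were 0.03 (SE 0.015), 0.02 (SE 0.02), 0.03 (SE 0.02) and -0.00 (SE 0.04) in the same order. None of them passed (edgeR adjusted p = 0.9998 each). That fit adds back the high and low libraries, between which these genes were already called upward. It is therefore not a test of the trimming.

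Instead, 8 of the 9 genes lie on chromosome 11 within 15 Mb of Hba-a1, a window chosen after the positions were seen. In that window 8 of 135 tested genes passed (5.93%), against 0 of 1317 on the rest of chromosome 11 and 1 of 17368 on other chromosomes (0.00576%). Over all libraries 6 of 135 passed in the window (4.44%), 0 on the rest of chromosome 11 and 3 elsewhere. These 9 genes are named because they passed. Mpg, a DNA repair glycosylase, starts 0.06 Mb before Hba-a1 (32226505 to 32232700) and had a slope of -0.06 (SE 0.01, edgeR adjusted p = 9.31e-08). Erlec1, a lectin of the endoplasmic reticulum, starts 1.35 Mb before it (30930774 to 30954335), with 0.04 (SE 0.01, adjusted p = 1.12e-07), and Gpr75 had -0.25 (SE 0.04, adjusted p = 1.16e-07).

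The other slopes also differed in sign from gene to gene. Ccdc85a, 3.90 Mb before Hba-a1, had 0.08 (SE 0.01, edgeR adjusted p = 0.000319), and the long noncoding D630024D03Rik, 0.49 Mb before it, had 0.11 (SE 0.02, adjusted p = 0.0127). Pttg1, the securin of the cell cycle, 11.14 Mb after it, had 0.26 (SE 0.05, adjusted p = 0.0115). Cfap36 had -0.03 (adjusted p = 0.0203) and Psme4, a proteasome activator, -0.02 (adjusted p = 0.0356), 3.06 and 1.51 Mb before Hba-a1. The only called gene elsewhere, Gm13341 on chromosome 2, had -0.63 (SE 0.13, adjusted p = 0.0115). Erlec1 overlaps Asb3 and Mpg overlaps Nprl3 on the opposite strand, and whether the counting used strand was not stated.

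**Figure D4:**
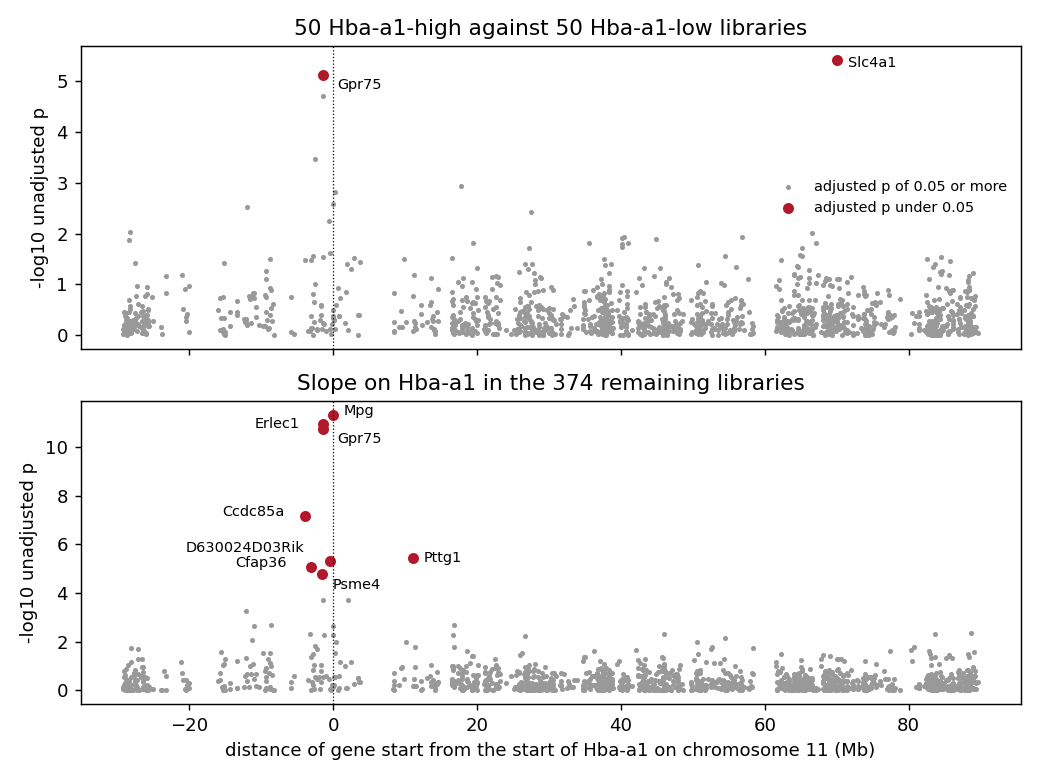
Genes of chromosome 11 by the distance of their start from that of Hba-a1 (horizontal axis, Mb) and by −log10 of the unadjusted p (vertical axis), for high against low libraries (upper panel) and for the slope in the remaining libraries (lower panel), with called genes in red. In the lower panel the 8 called genes lie from 3.90 Mb before to 11.14 Mb after Hba-a1, and in the upper panel Gpr75 lies near it and Slc4a1 70.1 Mb away.

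Between the extremes the 8 neighbours had the same sign as their slopes, and Gpr75 alone passed. Erlec1 had 20.5, 28.0 and 42.3 CPM in the high and 18.9, 24.6 and 34.6 CPM in the low libraries, a log2 difference of 0.18 (SE 0.04, edgeR adjusted p = 0.062) with a higher mean in 9 of 10 groups. Mpg had 1.60, 2.57 and 4.61 CPM against 1.39, 3.03 and 5.62 CPM, a difference of -0.20 (SE 0.07, adjusted p = 1.00) with a lower mean in 9 of 10 groups. Within 15 Mb of Hba-a1, 18 of 132 genes (13.6%) had an unadjusted p under 0.05 between the extremes, against 3.32% on the rest of chromosome 11 and 4.37% on other chromosomes. Neighbouring genes in this stock are inherited together and are not independent of each other.

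The picture changed when the remaining libraries were divided at the 10% share, a division made after the data were seen. Within the remaining libraries below it, 15 of 18907 genes passed (0.0793%), all upward, and 10 of the 15 belong to the erythroid lists. Hbb-bs had a slope of 1.23 (SE 0.11, edgeR adjusted p = 5.15e-20), Alas2 1.48 (SE 0.13, adjusted p = 5.15e-20), Hbb-bt 1.46 (SE 0.16, adjusted p = 3.06e-14) and Slc4a1 2.64 (SE 0.31, adjusted p = 8.53e-12). Other erythroid genes that rose included Ube2l6 at 0.42, Isg20 at 0.62, Tent5c at 0.53 and Mkrn1 at 0.14. The 5 outside those lists were the neutrophil gene S100a9 at 1.69, the interferon-induced Rsad2 at 0.74, the endothelial adhesion gene Sele at 1.30, Ephb4 at 0.16 and Wdr45 at 0.15. None of the chromosome 11 neighbours passed here, and Erlec1 had a slope of -0.00 (SE 0.04). Hba-a1 in these libraries reached at most 2.88 CPM, and how far such counts are reads of Hba-a2 was not tested.

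Within the 107 libraries above 10% the erythroid slopes were also upward, beside many other genes. Hbb-bs had 0.54 (SE 0.08, edgeR adjusted p = 2.20e-05), Alas2 0.54 (SE 0.10, adjusted p = 0.000939), Hbb-bt 0.66 (SE 0.13, adjusted p = 0.00257) and Slc4a1 1.57 (SE 0.35, adjusted p = 0.00428). In this smaller set 1133 of 19088 genes passed (5.94%), 827 of them downward (4.33%), so these calls are read against a high background. Erlec1 turned to -0.20 (SE 0.04, adjusted p = 0.00257), Ccdc85a had -0.27 (SE 0.10, adjusted p = 0.0798) and Mpg 0.12 (SE 0.06, adjusted p = 0.219). Over all remaining libraries, then, these slopes had the opposite sign to those within the upper range.

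**Figure D5:**
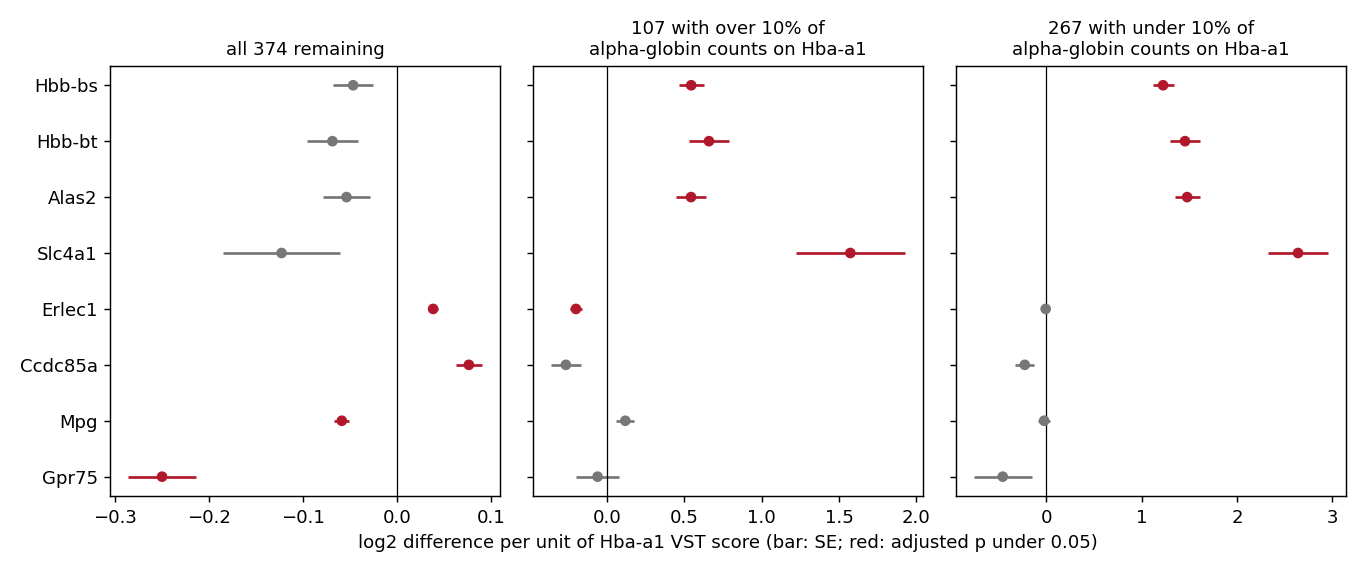
Slope on the Hba-a1 score (horizontal axis, log2 per unit of score, with its own scale in each panel) for 4 erythroid and 4 chromosome 11 genes in all remaining libraries and in those above (107) and below the 10% share. Bars are SE, and red marks an adjusted p under 0.05. In the left panel, whose libraries were trimmed on Hba-a1, the erythroid genes lie below 0 without passing. In the other panels they lie above 0 and past the threshold. Over all libraries, with the high and low sides included, their slopes did not pass either (Hbb-bs 0.03, Hbb-bt 0.02, Alas2 0.03, Slc4a1 -0.00).

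The medians of both ranges over all libraries of the series stood as follows. Above 10% the median of Hbb-bs was 56.6 CPM and below it 58.1 CPM, those of Alas2 were 1.89 and 1.79 CPM, and the sum of both alpha-globin genes was 76.5 and 71.7 CPM. Hba-a2 had 42.8 CPM above and 71.7 CPM below. Erlec1 had 27.9 and 24.9 CPM, Ccdc85a 7.84 and 6.16 CPM, Mpg 2.53 and 3.02 CPM, and Gpr75 0.314 and 0.400 CPM. Within each sex-by-generation group, the high side holds the 5 libraries with the highest Hba-a1 score, all of the upper range. The low side holds 5 with the lowest score, all of the lower range, with tied libraries left out in some groups. Across groups, remaining libraries above 10% reached 61.7 CPM of Hba-a1, while the lowest high library had 23.2 CPM.

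Likeness to Hba-a1 was measured on the score with group means removed. Because the libraries form separate ranges, Pearson's r is given within each, as a description over libraries that share sex, generation and depth in part. Over the 157 libraries above 10% the 10 genes most like it included Hbb-bs (r = 0.66), Alas2 (0.60), Hbb-bt (0.54), Slc4a1 (0.40) and Hba-a2 (0.38), and lower down Tpra1, Arhgef10l, Spsb2 and Zfp768 (0.36 to 0.34). Over the 317 below it they included Hba-a2 (0.47), Hbb-bs (0.46), Alas2 (0.46), Hbb-bt (0.39) and Slc4a1 (0.35), and lower down Wdr45, Ube2l6 and Isg20 (0.26 to 0.23). The same 5 genes thus led in both ranges, but Hba-a2 shares reads with Hba-a1, so its r is not independent of that sharing.

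Other erythroid measures would have chosen other libraries. Ranked in the same way on Alas2, 13 of the 50 high and 16 of the 50 low libraries were shared with the Hba-a1 sides. Ranked on Hbb-bs it was 14 and 14, and ranked on the summed alpha-globin CPM 14 and 17. In none of the 3 rankings was a high library on the low Hba-a1 side, or a low library on the high one. Of the 50 highest libraries 18, 18 and 16 had over 10% of their alpha-globin counts on Hba-a1 in these rankings, against 50 of 50 when Hba-a1 itself was ranked. The rankings on Hbb-bs and on the sum were added after the data were seen, and the gene that ranks is not read as a result.

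These rankings gave wider differences. Ranked on Alas2, 131 of 18593 genes passed (0.705%), 73 upward, ranked on Hbb-bs 1.48% of 18610, 175 upward and 101 downward, and ranked on the sum 1504 of 18654 (8.06%), 950 downward. Hbb-bt had log2 differences of 2.45, 2.58 and 2.52 in turn, against 1.06 between the Hba-a1 sides. Of the 16 endothelial genes 2, 4 and 8 rose, among them Cdh5, the cadherin of vessel walls, at 0.18 (SE 0.04), 0.15 (SE 0.04) and 0.22 (SE 0.04), and Vwf, the von Willebrand factor, at 0.22, 0.22 and 0.27. Of the 10 neutrophil genes tested between the Hba-a1 sides 0, 2 and 3 rose in turn. S100a8 rose by 2.00 (SE 0.44, edgeR adjusted p = 0.00816) in the Hbb-bs ranking and by 1.76 (SE 0.41, adjusted p = 0.00483) in that of the sum. Of 14 resident macrophage genes 0, 2 and 5 rose. Among them the complement genes C1qa and C1qb rose by 0.26 and 0.27 in the Hbb-bs ranking and by 0.34 and 0.36 in that of the sum. In the ranking on the sum, 4 of 13 mitochondrially encoded RNAs fell (mt-Nd1, mt-Nd2, mt-Nd4 and mt-Atp8, with differences of -0.235 to -0.554), and of 10 smooth muscle and pericyte genes Pdgfrb, Cspg4 and Kcnj8 rose by 0.14 to 0.24, while Abcc9 fell (-0.14). Gpr75 was called in none of the 3, with differences of -0.16, -0.31 and -0.32.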

How the data were processed

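Skeletal muscle RNA of 474 mice was analysed, 1 library per animal, grouped by the sex and generation in the titles. The study's methods name only generations 18, 19 and 21, so reading 17 and 23 in the titles as generations is an assumption. A few columns, all of remaining libraries, stand in another order than the samples and were matched by name. The authors selected polyadenylated RNA, joined both read ends as single reads, aligned them to a transcriptome of all founder strains and estimated counts with EMASE in GBRS; the deposited expected counts are unnormalised and count read ends. For each gene they also deposited a score made with DESeq2's variance stabilising transform, and this score ranked the libraries here. Aligner versions and any use of strand were not given in the sources used here.

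Expected counts were rounded. In R 4.3.3, edgeR 4.0.16 fitted the 100 libraries with the 10 groups as covariate (filterByExpr with minimum count 10, TMM, quasi-likelihood F-test, Benjamini-Hochberg over 18458 genes without Hba-a1 and Hba-a2, threshold 0.05). The filter kept 18460 of 20612 genes. Slopes in the remaining libraries and interactions were fitted likewise. The fit was tested on simulated counts. Alternatives used limma 3.58.1, DESeq2 1.42.0, other scalings, filters, covariates and rankings. The labels do not give the wave, a covariate of the study, so the fits leave it out. The 100 libraries left 374 remaining ones, 267 of them below the 10% share. CPM is the count scaled to a common total after TMM, and the p-values measure the spread between animals. Gene positions are as deposited (GRCm38).

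The members and gene lists were chosen with earlier results of these data known. Genes were named by rule: Hba-a1, Hba-a2, Hbb-bs, Hbb-bt and Alas2 always, up to 12 rises and 12 falls (and 8 rises outside the lists) that passed with a mean of at least 1 CPM and the same sign in 9 of 10 groups, for which only Hbb-bs, Hbb-bt and Alas2 qualified, the first gene of a list with up to 4 of the smallest adjusted p, and the 10 genes most like Hba-a1. Pooled over all libraries those 10 were Erlec1, D630024D03Rik, Ccdc85a, Iqgap3, Asb3, Ddit3, Gm15298, Calr3, Rpl17-ps10 and Pttg1, with no pooled correlation given because the libraries form separate ranges. Other genes were named after their values were seen. Results for some genes are not reported here.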

Additional observations from a re-analysis of the deposited data

Results flagged for a closer look

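Both genes that passed the test of side by generation are pseudogenes or predicted genes whose counts sat in a few libraries, and both stand out because the high minus low difference differed between generations. Rpl23a-ps3 (edgeR adjusted p = 4.90e-05) had a log2 difference of -1.27 in generation 18 and 1.16, 1.78 and 1.10 in generations 19, 21 and 23, while its medians on both sides stayed at or below 0.143 CPM and single libraries reached 36.9 CPM. Gm13339 (edgeR adjusted p = 0.00165) had -1.91 in generation 19, where the highest low library reached 613.5 CPM and the low means were 119.3 CPM (SD 266.6, n = 5) in females and 122.8 CPM (SD 274.3, n = 5) in males, and between -0.20 and 0.20 in the others. Neither passed in limma on the deposited score, where 0 genes passed and 894 had an unadjusted p under 0.05.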

How the results depend on the processing

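Shares of tested genes that passed are given here in percent. The 0.0271% (5 genes) between high and low libraries kept a count within 1.5 times under other scalings, filters, covariates and treatments of ties, in males and with limma, of whose 5 genes 3 were shared. It was 0.0162% (3 genes) with 3 and 0.0429% (8 genes) with 10 libraries per side and group, 0.0114% (2 genes) in females, 0.0542% (10 genes) with DESeq2, 0.00542% (Gpr75 alone) with Hbb-bs as covariate and 0.0% in each of the 5 blocks of library numbers, where up to 1884 genes had an unadjusted p under 0.05. Ranked on Alas2 it was 0.705%, on Hbb-bs 1.48% and on summed alpha-globin CPM 8.06%. Leaving out 1 group gave 0.0164% to 0.0327% (3 to 6 genes), with 3 genes without F_17, F_23, M_17 or M_19. The 0.0478% in the remaining libraries became 5.94% above and 0.0793% below the 10% share. There the slopes of Mpg (0.118 above), Erlec1 (-0.201 above, -0.004 below), Pttg1 (-0.414 above), Cfap36 (0.018 below), Ccdc85a (-0.266 above, -0.223 below), Gm13341 (0.98 below) and D630024D03Rik (-0.007 above, -0.023 below) turned. The 0.0108% of the generation test became 0.0% with limma. The cause of these changes was not tested. Ranked on Hba-a1, Hbb-bs and Alas2 passed in every alternative other than within blocks and with Hbb-bs as covariate. Hbb-bt missed in those and in females alone (adjusted p = 0.187). No paired analysis was possible because each animal gave 1 library and the groups share no replicate number. Depth limits genes under about 1 CPM, such as Slc4a1 and Gpr75.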

Other observations

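Among the 827 of 19088 genes (4.33%) that went down with Hba-a1 within the 107 remaining libraries above the 10% share were 6 of 13 mitochondrially encoded RNAs, with a list median of -0.13, and 2 of 15 genes of the interferon-induced list, with a median of -0.21. Of single genes, Igtp had a slope of -1.23 (SE 0.257, edgeR adjusted p = 0.00269), Irgm2 -1.19 and Gbp7 -1.05, and these genes were chosen after their values were seen. Upward were Csrp3 at 0.53, Ankrd2 at 0.41 and Nmrk2 at 0.59, also chosen after their values were seen. Stk10, 0.25 Mb after Hba-a1 on chromosome 11, had 0.44 (edgeR adjusted p = 0.00111). None of these passed between the high and low sides.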
